A study of Mus musculus with 9 samples.

Results

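The unstimulated olfactory bulb of the adult mouse was described from 3 libraries of polyadenylated RNA, 1 from each of 3 mice kept in clean air, out of 9 libraries in the series. The 3 libraries were taken by their labels and not by a measured value, but earlier results of these data were known at the time. All 3 mice were C57/BL6 animals of 6 to 8 weeks or older, and their air was passed through activated carbon. No genetic change or drug is named in the labels for these mice. The other 6 libraries, from mice exposed to odor, are not compared here. Levels are in RPKM, a read count scaled to the length of the gene and to the mapped reads of the library, so levels of different genes are compared per unit of length. Errors are the standard deviation (SD) over the 3 mice, and the coefficient of variation (CV) is the SD as a percentage of the mean. With 1 group there is no test, and an order of levels is called stable only where it was the same in all 3 libraries.

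The olfactory bulb is the first relay of the sense of smell in the brain. Axons of olfactory sensory neurons end in its glomeruli on mitral and tufted cells, which are glutamatergic and project to the olfactory cortex. They are inhibited through dendrodendritic synapses by granule cells and periglomerular cells, GABAergic interneurons that are replaced throughout life by neuroblasts migrating from the subventricular zone. A part of the periglomerular cells also makes dopamine. In whole tissue, fewer cells of a type and less RNA per cell cannot be told apart.

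At the depth recovered from the table, 1 RPKM of a transcript of 1 kb stood for 10.5, 22.2 and 29.9 reads in mice 1, 2 and 3, so that 3 reads of it correspond to 0.286, 0.135 and 0.10 RPKM. Log2 levels of 12761 identifiers correlated between libraries with Pearson's r of 0.939 to 0.948, across genes that are not independent replicates. Mitochondrial transcripts took 0.878%, 3.34% and 0.804% of the summed RPKM, so mouse 2 stood apart there. The deviation of a library from the other mice followed the GC content of the transcript, with Spearman's rho of 0.024, -0.381 and 0.356 in mice 1, 2 and 3 over 11702 genes. GC-poor transcripts were thus relatively high in mouse 2 and GC-rich ones in mouse 3. Some genes that every cell uses were listed at 0 in all 3 libraries, among them Gapdh, Ubb, Fau and 23 of 73 ribosomal protein genes. In the ribosomal protein genes listed at 0, a median of 43.3% of the 35-base windows of the transcript also occurred in another gene, against 13.8% in the 8 at 100 RPKM or more. A gene at 0 is therefore reported only as listed at 0.

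Of 27497 gene identifiers, 11891 (43.2%) reached 1 RPKM in all 3 libraries, 5334 (19.4%) reached 10 RPKM and 426 (1.55%) reached 100 RPKM. Among the 18845 protein-coding identifiers the shares were 58.8% at 1 RPKM and 27.2% at 10 RPKM. Between 853 and 893 identifiers made up the first 50% of the summed RPKM of a library. The 25 most abundant identifiers held 8.97%, 9.80% and 8.70% of it. The top of the list differed between mice, since 11 identifiers were among the first 25 in every library and 40 were there in at least 1.

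The most abundant transcript was Apoe (ENSMUSG00000002985), the lipid carrier that brain astrocytes secrete, with 3784, 4552 and 3827 RPKM in mice 1, 2 and 3. Its mean was 4054 ± 432 RPKM, and its range lay above that of every other gene. Ptgds, the prostaglandin D synthase made by meninges and oligodendrocytes, had 3609, 2578 and 2053 RPKM and was second on average. Ckb, the brain creatine kinase, had 1798, 1658 and 2587 RPKM. The secreted protease inhibitor Cst3 had 1759, 2024 and 1486 RPKM. The ranges of Ckb and Cst3 overlapped, so their order is not resolved.

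Among the 25 most abundant nuclear protein-coding genes, Cox6a1, a subunit of cytochrome oxidase, had 582, 738 and 1547 RPKM, and Cox4i1, another subunit, had 912, 552 and 508 RPKM. These values ran in opposite directions over the mice, mouse 3 being highest for Cox6a1 and lowest for Cox4i1. The glycolytic aldolase genes Aldoa and Aldoc had means of 848 and 746 RPKM, of which Aldoc is the astrocyte form. The ATP synthase subunit gene Atp5b had 812, 712 and 441 RPKM.

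Pcsk1n, whose protein inhibits a prohormone convertase, had 684, 1323 and 1082 RPKM. Calm3, a calmodulin gene, had 889, 878 and 1218 RPKM, and the vesicle protein gene Rab3a had 562, 869 and 822 RPKM. Cpe, the carboxypeptidase that trims peptide precursors, was steady at 780, 725 and 735 RPKM. Ndrg4 (1155, 977 and 1069 RPKM) and the lysosomal Psap (871, 699 and 943 RPKM) were steady too, while the neuronal gene Ncdn ranged from 527 RPKM in mouse 2 to 1088 RPKM in mouse 3.

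The metallothionein gene Mt1, a metal-binding protein gene, spread most among the first 6 nuclear genes, with 2134, 953 and 618 RPKM. Its neighbour in the family, Mt2, had 843, 304 and 359 RPKM, and the brain form Mt3 had 821, 541 and 612 RPKM. All 3 were highest in mouse 1. Mt1 exceeded Mt3 by 2.60-fold in mouse 1, 1.76-fold in mouse 2 and 1.01-fold in mouse 3. Dbi, the diazepam binding inhibitor gene of glia, had 1028, 699 and 171 RPKM, and Apod, a lipocalin of glia and meninges, had 839, 1159 and 376 RPKM. For Dbi and Apod mouse 3 was the low one.

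**Figure D1:**
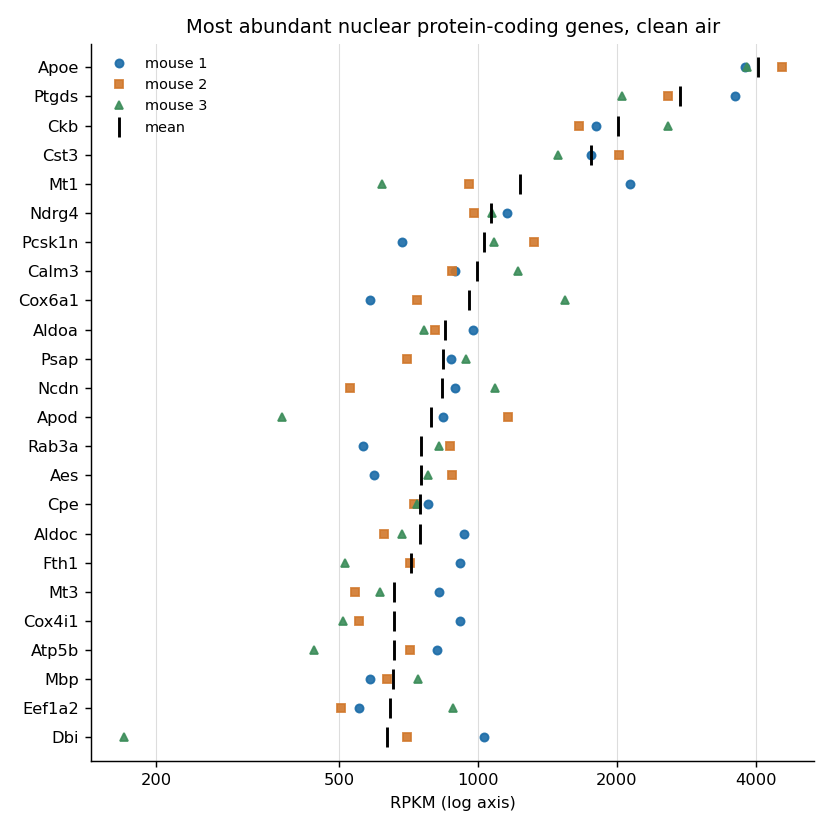
RPKM (log axis) of 24 of the 25 most abundant nuclear protein-coding genes, ordered by mean, with 1 symbol per mouse and a bar for the mean. The 3 symbols lie close for Ndrg4 and Cpe and far apart for Mt1, Cox6a1, Apod and Dbi.

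The 3 most abundant mitochondrial messages varied together. The cytochrome b gene mt-Cytb had 863, 3028 and 697 RPKM, mt-Co1 had 627, 2027 and 454 RPKM, and mt-Nd1 had 414, 1751 and 382 RPKM. Mouse 2 was the highest and mouse 3 the lowest for each. They stood at ranks 6, 9 and 13 of all identifiers by mean. The less abundant mt-Nd6 was also highest in mouse 2 but lowest in mouse 1, with 94.3, 679 and 227 RPKM.

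The labelled tissue was checked against markers of its cell types, which were present. Across 17 marker lists, the median level of a list's genes was highest for granule cells and other GABAergic interneurons, with list medians of 99.1, 105 and 91.1 RPKM in mice 1, 2 and 3. All 11 members analysed there reached 10 RPKM in every library, against 27.2% of protein-coding identifiers. Astrocyte genes followed with 96.2, 69.3 and 77.9 RPKM, and all 12 of them reached 10 RPKM. The order of these 2 lists depended on the mice used. On gene means, the astrocyte median was the higher without mouse 2 (84.9 against 81.3 RPKM) and without mouse 3 (76.8 against 75.95 RPKM). Without mouse 1 it was the lower (59.5 against 98.3 RPKM). Mitral and tufted cell genes had list medians of 41.1, 20.1 and 39.8 RPKM, and oligodendrocyte genes had 30.7, 27.9 and 29.2 RPKM. The lists were compiled from textbook markers, hold different genes and cannot be turned into cell numbers.

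Among markers of the projection neurons, Slc17a7 (ENSMUSG00000070570), the vesicular glutamate transporter VGLUT1, had 385, 324 and 521 RPKM. Cdhr1, a cadherin of mitral and tufted cells, had 150, 123 and 86.8 RPKM. The T-box factor genes Eomes (Tbr2) and Tbx21, which mark mitral and tufted cells, had means of 56.3 ± 12.2 and 17.5 ± 2.35 RPKM, and Tbr1 had 5.17 ± 1.27 RPKM. Reln, the secreted guidance protein of mitral cells, had 41.1, 18.7 and 39.8 RPKM. Doc2g had 568 ± 137 RPKM, but 75.6% of its transcript windows also occur in another annotated gene, so its level is uncertain. Eomes exceeded Tbx21, and Tbx21 exceeded Tbr1, in every library.

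The interneuron markers were led by Gad1, the main GABA-synthesizing enzyme, with 470, 360 and 280 RPKM, and Synpr, the vesicle protein synaptoporin of granule cells, with 403, 310 and 249 RPKM. In both, mouse 1 was highest and mouse 3 lowest. The peptide precursor Penk had 194, 232 and 115 RPKM. The homeobox factors of the interneuron lineage, Meis2, Dlx1, Dlx5, Dlx2 and Dlx6, had means of 174, 154, 81.0, 68.4 and 46.6 RPKM.

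Periglomerular markers diverged in level. Calb2 (calretinin, ENSMUSG00000003657) had 464, 592 and 655 RPKM, while Calb1 (calbindin) had 0.720, 0.780 and 1.14 RPKM, and Calb2 was 575-fold to 759-fold above Calb1. Th (tyrosine hydroxylase, ENSMUSG00000000214) had 183, 157 and 168 RPKM, a CV of 7.61%. Pax6, a factor of dopaminergic periglomerular neurons, had 37.5, 36.7 and 62.4 RPKM. Pvalb (parvalbumin, of external plexiform layer interneurons) had 5.55, 11.2 and 6.25 RPKM.

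Migrating neuroblast genes had list medians of 21, 23 and 15.2 RPKM. Dcx, the microtubule protein doublecortin, had 18.2, 12.6 and 13.0 RPKM, and Sox11 had 4.39 ± 0.748 RPKM. Tubb3 was higher, at 401 ± 85.1 RPKM, and is also expressed by mature neurons. Dividing cell genes were low, with list medians of 0.305, 0.20 and 0.275 RPKM and 2 of 10 at 1 RPKM in all libraries, against 58.8% of protein-coding identifiers. The proliferation marker Mki67 had 0.06, 0.15 and 0.02 RPKM and the topoisomerase gene Top2a 0.25, 0.10 and 0.02 RPKM. Pcna, which also acts in DNA repair, had 8.55 ± 2.30 RPKM.

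Messages of olfactory sensory neurons, whose cell bodies lie in the nasal epithelium, were present. Omp, the olfactory marker protein gene, had 113, 79.9 and 98.9 RPKM, S100a5 had 222, 378 and 145 RPKM, and Gng13 had 148, 137 and 49.5 RPKM. The channel gene Cnga2 of their cilia had 0.570, 0.620 and 0.260 RPKM and Ano2 had 0.720, 0.220 and 0.190 RPKM. Of the 10 members analysed, 6 reached 1 RPKM in all libraries, a share near the 58.8% of protein-coding identifiers. Olfactory ensheathing cell genes had list medians of 30.7, 19.2 and 18.1 RPKM, led by Fabp7 (199, 277 and 100 RPKM) and Npy (199, 217 and 95.6 RPKM), and Npy is also made by neurons of the bulb.

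Glial and vascular lists were led by a few genes each. Among astrocyte genes, Aldoc had 746 ± 165 RPKM, the glutamine synthetase gene Glul 542 ± 85.5 RPKM and the filament gene Gfap 234 ± 51.4 RPKM. Mbp, the myelin basic protein gene, had 583, 633 and 741 RPKM, followed among oligodendrocyte genes by Mobp with 158 ± 54.4 RPKM. Microglial genes had list medians of 12.5, 9.08 and 10.3 RPKM, with the complement genes C1qa, C1qb and C1qc at 74.3, 69.0 and 61.0 RPKM. Endothelial Cldn5 had 80.0 ± 5.99 RPKM and the mural cell gene Vtn 116 ± 41.3 RPKM.

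Markers of tissue next to the bulb differed widely in level. Choroid plexus and ependymal genes had list medians of 0.830, 0.390 and 0.365 RPKM, and the choroid plexus gene Ttr had 4.38, 2.83 and 1.82 RPKM. In the meninges and fibroblast list, 8 of 11 members reached 1 RPKM, against 58.8% of protein-coding identifiers. Its levels ran from 0.340 RPKM for Lum to 2747 RPKM for Ptgds. Ptgds and Apod, which glia also make, were its members above 100 RPKM. Its collagen genes Col1a1 and Col1a2 had 9.42 ± 2.27 and 9.21 ± 2.94 RPKM. Of the cortical excitatory neuron genes, 8 of 11 reached 1 RPKM, against the same 58.8% of protein-coding identifiers. Among the 8 were Slc17a7 and Tbr1, which mitral and tufted cells also express. In that list Neurod6 had 0.490 RPKM on average, whereas Nrgn (neurogranin) had 280, 708 and 604 RPKM. Of 11 genes of the hypothalamus, hindbrain and other tissues, only Pomc reached 1 RPKM, with 2.68 ± 0.225 RPKM. The red blood cell gene Hbb-bs had 142, 76.2 and 37 RPKM, and both alpha globin genes were listed at 0. Of their transcript windows, 66.7% for Hbb-bs and 70.5% and 90.2% for the alpha globin genes also occur in another annotated gene. The globin levels are therefore uncertain. Male-specific genes of the Y chromosome, such as Ddx3y with 2.82, 3.94 and 3.12 RPKM, were detected in all 3 mice.

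**Figure D2:**
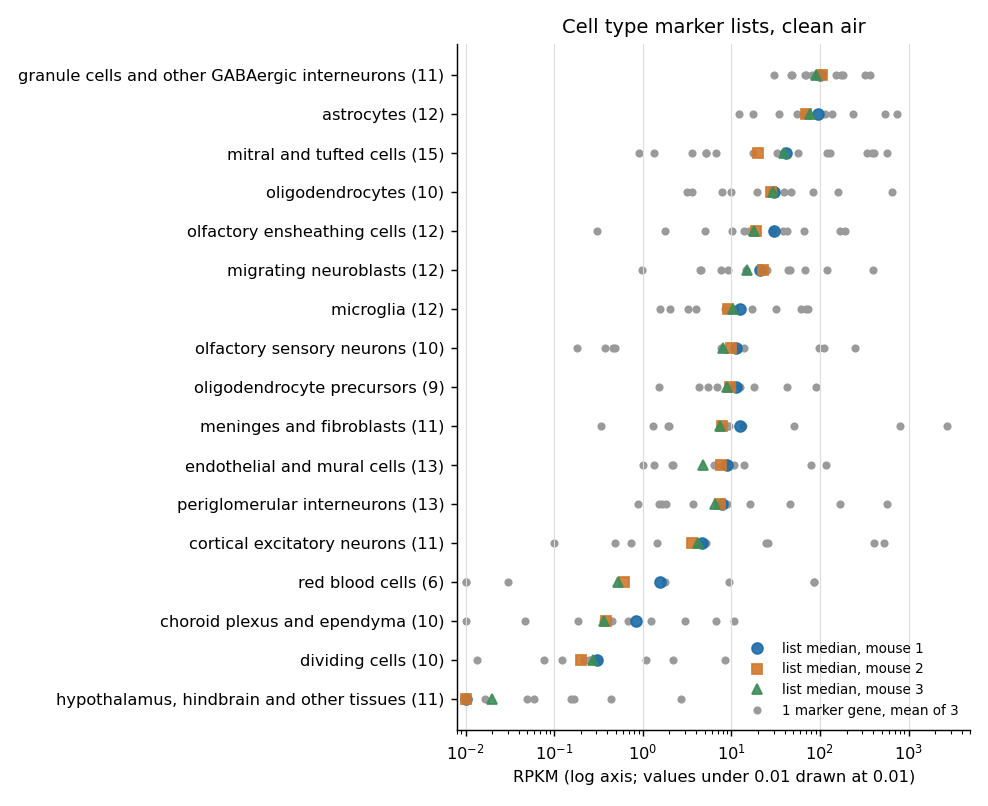
Levels in RPKM (log axis, values under 0.01 drawn at 0.01) for 17 marker lists, with the number of genes analysed in parentheses. Grey points are single genes (mean of 3 libraries) and coloured symbols the list medians of each mouse; granule cell and astrocyte genes lie at the top, dividing cell genes and genes of other tissues at the bottom.

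The transmitter systems are built from enzymes that make a transmitter, a vesicular transporter that packs it and transporters and enzymes that remove it. For glutamate, the vesicular transporters were very uneven. Slc17a7 had 410 ± 101 RPKM, Slc17a6 (VGLUT2) had 2.96, 3.27 and 4.52 RPKM, and Slc17a8 (VGLUT3) was listed at 0. Slc17a7 exceeded Slc17a6 by 130-fold, 99.2-fold and 115-fold. Of 16 genes of the glutamate list, 15 reached 1 RPKM in all libraries, against 58.8% of protein-coding identifiers.

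Among glutamate uptake genes, the glial transporter Slc1a3 (GLAST) was even, at 119, 120 and 103 RPKM. Slc1a2 (GLT-1) had 101, 24.0 and 92.6 RPKM and was below Slc1a3 in every mouse, at 0.849, 0.201 and 0.902 of its level. The neuronal transporter Slc1a1 had 28.4 ± 3.18 RPKM.

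For GABA, Gad1 exceeded Gad2 in every library, by 9.25-fold, 6.26-fold and 7.38-fold, with Gad2 at 50.8, 57.5 and 37.9 RPKM. The glial transporter Slc6a11 (GAT-3) had 329, 191 and 187 RPKM, highest in mouse 1. Abat, which breaks GABA down, had 110 ± 11.6 RPKM. The summed level of the 2 GABA-synthesizing genes over the summed level of the 3 vesicular glutamate transporters was 1.34, 1.27 and 0.604, a mean of 1.07 ± 0.408. It was above 1 in mice 1 and 2 and below 1 in mouse 3. The vesicular GABA transporter gene was not analysed here.

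For dopamine, Th stood apart from the other genes of its pathway. Ddc, the next enzyme, had 7.84, 6.71 and 10.5 RPKM, and Th was 23.3-fold, 23.4-fold and 16.0-fold higher. The dopamine transporter Slc6a3 had 5.14, 2.78 and 3.22 RPKM, and the vesicular monoamine transporter Slc18a2 had 1.39, 1.48 and 2.04 RPKM. Gch1, the first enzyme of the cofactor tetrahydrobiopterin, was even at 1.49, 1.52 and 1.53 RPKM. Qdpr, which recycles that cofactor, had 67.4 ± 6.84 RPKM. All 11 dopamine genes reached 1 RPKM in every library, against 58.8% of protein-coding identifiers.

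The genes that define other monoamine and cholinergic neurons were near or at 0. Their cell bodies lie mostly outside the bulb and send axons into it. Dbh, the noradrenaline enzyme, had 0.610, 0.310 and 0.570 RPKM, and the noradrenaline transporter Slc6a2 was listed at 0. The serotonin enzyme Tph2 had 0, 0.040 and 0 RPKM. Chat, which makes acetylcholine, had 0, 0 and 0.030 RPKM, and the choline transporter Slc5a7 was listed at 0. In contrast, Ache, which degrades acetylcholine, had 44.3, 48.4 and 55.8 RPKM. The glycine transporter Slc6a5 of glycinergic terminals had 0.020 RPKM on average, and the glial glycine transporter Slc6a9 had 78.1 ± 9.96 RPKM.

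Of 27 neuropeptide and granin precursors analysed, 24 reached 1 RPKM and 14 reached 10 RPKM in all libraries, against 58.8% and 27.2% of protein-coding identifiers. Cck, the cholecystokinin precursor of tufted cells, had 225, 367 and 301 RPKM. Penk had 180 ± 59.9 RPKM, Nmb, the neuromedin B precursor, 128 ± 27.7 RPKM, and Trh, the thyrotropin-releasing hormone precursor, 87.3, 74.1 and 101 RPKM. Sst and Crh, the somatostatin and corticotropin-releasing hormone precursors, had 28.2 ± 10 and 14.8 ± 6.03 RPKM. The gastrin-releasing peptide precursor Grp had 0, 0 and 0.090 RPKM.

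Of the 9 nitric oxide and cyclic GMP genes, 8 reached 1 RPKM and 3 reached 10 RPKM in all libraries. Among protein-coding identifiers the shares were 58.8% and 27.2%, so 3 of 9 lay near the background. The list median was 2.90 RPKM, against 3.26 RPKM over protein-coding identifiers. The 3 genes at 10 RPKM were Nos1, Gucy1b1 and Gucy1a1, while the inducible synthase gene Nos2 had 0.177 RPKM on average. Nos1, the neuronal nitric oxide synthase, had 19.6, 10.2 and 20.4 RPKM, and its target subunits Gucy1b1 and Gucy1a1 had 43.8 ± 8.47 and 28.3 ± 9.57 RPKM. All 6 endocannabinoid genes reached 1 RPKM and 3 reached 10 RPKM, against the same 58.8% and 27.2%, with a list median of 13.9 RPKM. Dagla, which makes the endocannabinoid 2-arachidonoylglycerol, had 16.0 ± 1.31 RPKM, and Mgll, which degrades it, had 79.8, 35.1 and 58.4 RPKM. The cannabinoid receptor Cnr1 was even at 2.67, 2.70 and 2.56 RPKM.

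Receptors are assembled from alternative subunits, which set conductance, kinetics and drug sensitivity. Shares below are of the summed RPKM of a family within a library. In 24 of 27 families the same member led in all 3 libraries. The exceptions were the GABA-A gamma and delta family, the muscarinic family and the minor GABA-A subunits. The 27 also include auxiliary proteins, scaffolds, HCN channels, chloride co-transporters and calmodulin genes, and some have only 2 or 3 members. The count is therefore not one of receptor families alone.

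AMPA receptors carry fast excitation, and Gria2 makes them impermeable to calcium once its message is edited. Gria1 led with 122, 117 and 89.2 RPKM, a share of 64.0% ± 4.14. Gria2 had 24.6, 31.1 and 22.3 RPKM, a share of 15.2% ± 1.2, Gria4 had a share of 13.8% ± 2.95 and Gria3 of 6.97% ± 0.583. The order was the same in all 3 libraries, although the ranges of Gria2 and Gria4 overlapped. Among auxiliary proteins, Olfm1 had 387 ± 94.1 RPKM, the TARP gene Cacng7 195 ± 12.8 RPKM and Cnih2 105, 210 and 115 RPKM. The classical TARP gene Cacng2 (stargazin) had 14.7 ± 3.12 RPKM.

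NMDA receptors need the obligatory subunit GluN1, made by Grin1, and GluN2 subunits. Grin1 had 230, 182 and 257 RPKM and exceeded the summed GluN2 genes by 3.05-fold, 2.62-fold and 3.30-fold. Grin2c led the GluN2 genes with 51.3, 47.8 and 50.6 RPKM, a share of 67.3% ± 2.16. Grin2d followed with 17.2, 18.5 and 18.4 RPKM (24.3% ± 2.12). Grin2b had 5.14, 1.99 and 7.54 RPKM (6.45% ± 3.41) and Grin2a had 1.87, 0.990 and 1.53 RPKM (1.96% ± 0.523). This order was the same in all 3 libraries without overlap between neighbours. Grin2b varied most, its level in mouse 3 being above that in mouse 2 by more than the whole level of Grin2a.

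Kainate receptor genes were led by Grik5, which needs partner subunits to form a channel, with 126, 147 and 156 RPKM (71.5% ± 4.48 of a family that includes the auxiliary Neto genes). Grik3 had 28.7, 13.6 and 29.8 RPKM. Grik2 had 8.99 ± 1.48 RPKM and Grik1 4.91 ± 0.868 RPKM. Among metabotropic glutamate receptors, Grm2, an inhibitory receptor, had 72.7, 60.5 and 103 RPKM (46.3% ± 4.91). Grm4 had 44.5, 42.2 and 58.1 RPKM (28.9% ± 2.95). Grm5, a receptor of granule cells, had 11.8, 7.5 and 9.67 RPKM. The order of all 8 members was the same in every library, and Grm6, the retinal form, was listed at 0.

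GABA-A receptors are pentamers of alpha, beta and gamma or delta subunits. Gabra5, whose receptors lie mostly outside synapses, led the alpha genes with 43.8, 47.2 and 24.2 RPKM (42.5% ± 3.70). Gabra3 had a share of 18.2% ± 2.85, Gabra2 of 13.6% ± 1.56 and Gabra4 of 6.93% ± 0.988, and the cerebellar Gabra6 was listed at 0. Gabrd, the delta subunit of extrasynaptic receptors, had 30.7, 19.3 and 22.8 RPKM. It took 68.4%, 48.4% and 57.3% of the gamma and delta genes and led them in mice 1 and 3 only. None of the 6 minor subunits (epsilon, pi, theta and rho) reached 1 RPKM, against 58.8% of protein-coding identifiers.

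GABA-B receptors are dimers of Gabbr1 and Gabbr2. Gabbr1 had 163, 139 and 122 RPKM and was above Gabbr2 by 6.71-fold, 6.90-fold and 4.64-fold. The auxiliary Kctd12 had 88.3, 86.7 and 113 RPKM, and Kctd16 had 0.230, 0.260 and 1.54 RPKM. Among glycine receptor genes, the beta subunit Glrb had 19.4 ± 2.02 RPKM, 90.2% of the family on average. The highest alpha subunit, Glra2, had 1.01, 2.62 and 0.930 RPKM. Glrb exceeded the summed alpha genes by 13.4-fold, 6.03-fold and 11.3-fold.

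Receptors for the modulators that arrive by axons from other regions were detected in part. At 1 RPKM in all libraries were 4 of 5 muscarinic, 6 of 7 adrenergic and 2 of 3 histamine receptor genes analysed. For nicotinic and serotonin receptor genes it was 7 of 13 (53.8%) and 6 of 13 (46.2%). The share of protein-coding identifiers was 58.8%. The nicotinic and serotonin list medians were 1.75 and 1.24 RPKM, against 3.26 RPKM over protein-coding identifiers. Of the muscarinic genes, Chrm1 had 31.6, 28.2 and 32.9 RPKM and Chrm4 30.5, 23.3 and 35.9 RPKM, and the 2 were not resolved in order. The nicotinic genes were led by Chrnb2 (19.9, 14.6 and 13.7 RPKM) and Chrna10 (11.8, 12.1 and 12.6 RPKM), while the usual partner of Chrnb2, Chrna4, had 2.64 ± 1.23 RPKM. Adra1d led the adrenergic genes with 19.9, 12.3 and 26.1 RPKM. Htr3a, an ion channel subunit, led the serotonin receptor genes with 12.1, 7.90 and 10.4 RPKM, and no other serotonin receptor mean reached 5 RPKM. Hrh3, the histamine autoreceptor, had 30.7, 27.5 and 37.1 RPKM.

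Dopamine receptor genes were low. Drd2, the inhibitory receptor found on sensory axon terminals, had 3.22, 1.12 and 1.32 RPKM, and Drd1 had 0.510, 0.560 and 0.200 RPKM. Drd2 was above Drd5, with 0.690, 0.910 and 1.17 RPKM, in every library, but their ranges overlapped. Only Drd2 reached 1 RPKM in all 3 libraries, 1 of 5 members against 58.8% of protein-coding identifiers.

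Of 37 peptide and hormone receptors analysed, 18 (48.6%) reached 1 RPKM and 5 reached 10 RPKM in every library. Both shares were higher among protein-coding identifiers, at 58.8% and 27.2%. Ntsr2, a neurotensin receptor of astrocytes, had 182, 128 and 99.8 RPKM. Adcyap1r1, the PACAP receptor, had 76.7, 79.5 and 63.4 RPKM, Cckbr, the brain cholecystokinin receptor, 31.6, 27.4 and 44.5 RPKM, and Crhr1, the receptor for corticotropin-releasing hormone, 30.5, 19.1 and 27.1 RPKM. Vipr2 had 15.2, 16.7 and 34.4 RPKM. The neuromedin B receptor gene Nmbr had 1.06, 0.890 and 1.41 RPKM. Of the receptors for thyrotropin-releasing hormone, Trhr had 0.150, 0.350 and 0.220 RPKM and Trhr2 3.69, 2.62 and 6.35 RPKM.

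Of the HCN channels, which carry the current activated by hyperpolarization, Hcn2 had 89.1, 57.3 and 83.4 RPKM (64.4% of the family), and Hcn3 and Hcn4 followed in that order in every library. The chloride exporter Slc12a5 (KCC2), which sets the direction of GABA currents, had 110, 32.6 and 129 RPKM, and the importer Slc12a2 5.82, 6.47 and 4.96 RPKM. Slc12a5 was higher by 18.9-fold, 5.04-fold and 26-fold. Of the postsynaptic scaffold genes, Dlg4 (PSD-95) was even at 313, 309 and 327 RPKM, and the inhibitory scaffold gene Gphn (gephyrin) had 20.9 ± 5.45 RPKM.

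**Figure D3:**
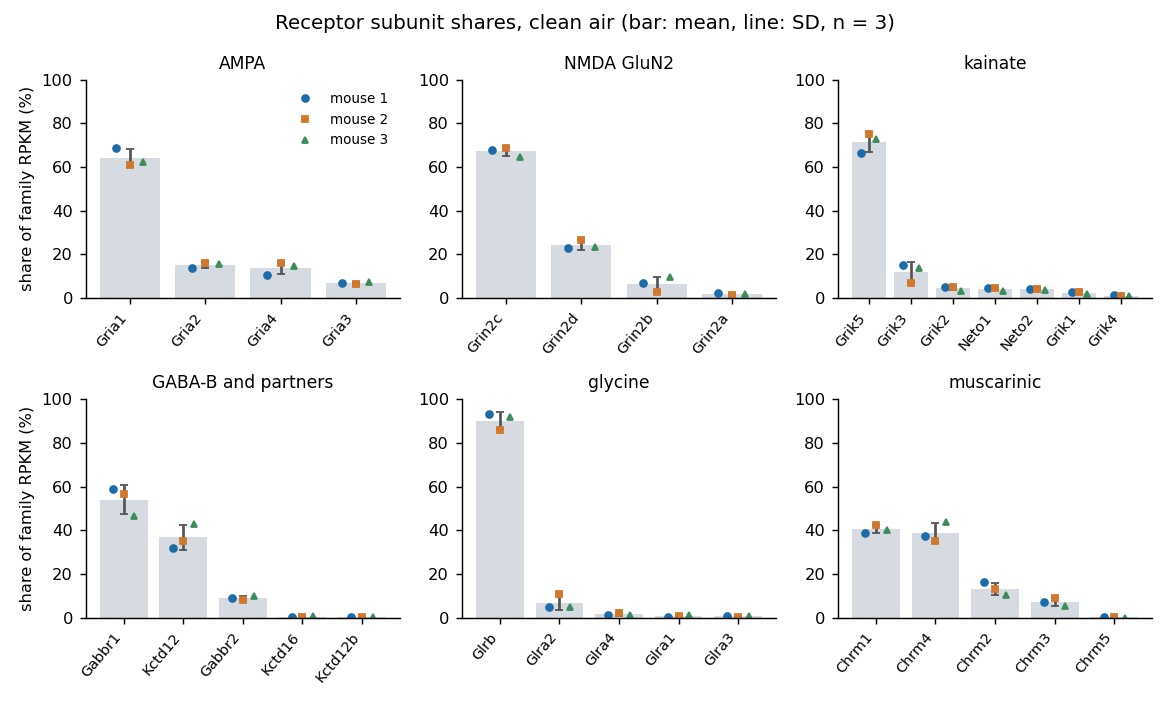
Share (%) of the summed RPKM of 6 receptor families taken by each gene; bars are means, lines the SD of 3 libraries, symbols the mice. Gria1, Grin2c, Grik5 and Glrb each took over 60% on average, while Chrm1 and Chrm4 changed order between mice.

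The base composition of the transcripts moved with these levels. Across 11702 nuclear protein-coding genes, level and GC content correlated with Spearman's rho of 0.297, and level and transcript length with -0.125. The median level was 5.66 RPKM in the 20% of genes lowest in GC and 19.2 RPKM in the 20% highest. In 5 of 12 receptor and channel families examined, the leading member had the highest GC content of its family. Grik5 has 61.7% GC, the highest of its family, and Grin2c 62.1%, the second of its family after 65.0%; the lowest members have 36.5% and 44.8%. The part of base composition in the subunit shares was not tested.

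Of 225 transcription factors in 6 lists by protein family, 209 were analysed. Of these, 178 reached 1 RPKM in all 3 libraries and 91 reached 10 RPKM, against 58.8% and 27.2% of protein-coding identifiers. Only 6 reached 100 RPKM in every library, and the median over the 209 means was 9.51 RPKM.

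Thra, the thyroid hormone receptor alpha gene, led with 356, 238 and 285 RPKM (mean 293 ± 59.8). Jund, an AP-1 subunit that is made constitutively, followed with 162, 306 and 233 RPKM. Mouse 1 was the highest for Thra and the lowest for Jund. Zic1, a zinc finger factor of interneuron progenitors, had 157, 186 and 166 RPKM, a CV of 8.86%. Dlx1 had 113, 176 and 172 RPKM and Meis2 196, 189 and 139 RPKM. Sp9, a further factor of the interneuron lineage, had 80.8 ± 17.3 RPKM.

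Among the 20 highest factors were Dbp, Tef and Nr1d1, whose levels are known to follow the time of day. Dbp had 81.4, 88.2 and 86.0 RPKM and Tef 83.6, 75.7 and 80.8 RPKM, with CVs of 4.12% and 4.99%. Nr1d1 (REV-ERB alpha) had 105, 89.9 and 125 RPKM and spread more, with a CV of 16.6%. The labels give no time of day for the dissections. The 20 also held Id2, an inhibitor of bHLH factors (110 ± 11.3 RPKM), Olig1 of the oligodendrocyte lineage (91.3 ± 11.5 RPKM) and Id3 (72.1, 73.2 and 70.7 RPKM). Epas1, a hypoxia-regulated factor of vessels and astrocytes, had 68.0 ± 12.5 RPKM. Pbx3 and Bcl11a, present in bulb interneurons, had 89.0, 123 and 63.4 RPKM and 90.8, 110 and 41.8 RPKM.

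**Figure D4:**
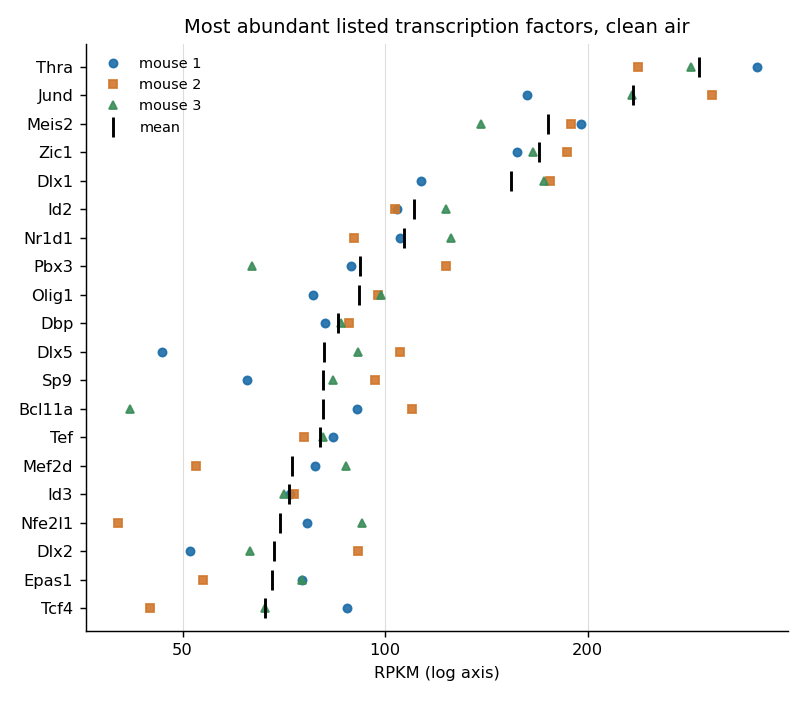
RPKM (log axis) of the 20 most abundant of the listed transcription factors, ordered by mean, 1 symbol per mouse and a bar for the mean. Thra and Jund lie at the top, and the 3 mice lie closest for Id3, Dbp and Tef.

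Immediate early factors, which neurons transcribe within minutes of activity through factors such as CREB bound to their promoters, were detected in clean air but differed between the mice. Fos had 4.73, 4.04 and 12.1 RPKM (mean 6.96 ± 4.47). Nr4a1 had 18.1, 22.9 and 75.5 RPKM and Egr1 21.2, 22.3 and 67.5 RPKM. In all 3 genes mouse 3 lay above the other mice by more than 2-fold, while mice 1 and 2 were close. Mouse 3 was also the highest for Fosb (2.50, 4.65 and 7.16 RPKM), Junb (22.3, 35.6 and 39.9 RPKM), Egr3, Npas4 and Nr4a3, 8 of 10 immediate early factors. Over all listed factors with a mean of at least 1 RPKM, mouse 3 was the highest for 69 of 182. Nr4a2 had 9.85, 7.53 and 9.28 RPKM and was highest in mouse 1 on this scale. With libraries rescaled by the median of ratios, a setting chosen after seeing the data, all 10 were highest in mouse 3. That rescaling divides mice 1, 2 and 3 by 1.05, 1.01 and 0.947, which raises mouse 3 against the others for every gene. The count over all listed factors was not repeated on that scale, so the 10 have no background there. Fos and Nr4a1 transcripts have 51.9% and 57.0% GC, and GC-rich transcripts were relatively high in mouse 3 in general, with the values given above. The part of base composition in this pattern was not tested.

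The 250 bases before the start site of Fos, Fosb and Nr4a1, which were high together in mouse 3, are shown with those of Th, the steady leading gene of the dopamine pathway. They are from RefSeq promoters of the build GRCm38.p6, written 5′ to 3′ on the strand of the gene. Capitals mark each match, on either strand, of TGACG, the core of the cAMP response element to which CREB binds (CGTCA is the core on the other strand).
Fos, chr12:85473640-85473889, plus strand: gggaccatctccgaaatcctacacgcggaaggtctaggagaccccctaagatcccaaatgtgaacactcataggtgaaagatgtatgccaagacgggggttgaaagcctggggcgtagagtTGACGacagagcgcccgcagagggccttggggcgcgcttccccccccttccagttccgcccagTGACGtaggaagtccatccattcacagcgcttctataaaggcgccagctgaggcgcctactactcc
Fosb, chr7:19310046-19310295, minus strand: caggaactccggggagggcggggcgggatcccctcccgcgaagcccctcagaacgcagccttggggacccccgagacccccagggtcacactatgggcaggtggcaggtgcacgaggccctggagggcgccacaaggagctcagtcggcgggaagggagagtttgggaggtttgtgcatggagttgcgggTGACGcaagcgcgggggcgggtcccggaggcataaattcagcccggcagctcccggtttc
Nr4a1, chr15:101266596-101266845, plus strand: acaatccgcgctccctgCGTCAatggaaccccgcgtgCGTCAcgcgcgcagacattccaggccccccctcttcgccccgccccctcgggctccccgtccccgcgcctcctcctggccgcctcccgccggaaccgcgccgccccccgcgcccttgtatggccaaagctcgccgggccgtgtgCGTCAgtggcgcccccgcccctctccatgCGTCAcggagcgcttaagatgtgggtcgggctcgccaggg
Th, chr7:142899996-142900245, minus strand: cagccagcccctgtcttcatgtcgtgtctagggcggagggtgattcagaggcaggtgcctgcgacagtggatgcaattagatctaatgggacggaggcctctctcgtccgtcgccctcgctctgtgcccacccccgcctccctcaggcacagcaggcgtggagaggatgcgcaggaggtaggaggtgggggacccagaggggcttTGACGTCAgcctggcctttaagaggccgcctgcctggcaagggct

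The Fos stretch holds 2 matches, the nearer of which begins 66 bases before the start. Fosb holds 1, beginning 60 bases before the start, and Nr4a1 holds 4, beginning 233, 213, 69 and 40 bases before it. In Th the matches on both strands overlap in the full palindrome TGACGTCA, which begins 45 bases before the start. Each of the 8 immediate early factors whose promoter was examined held at least 1 match. Of 32851 RefSeq promoter stretches of the same length, 17.8% did. The promoters of Egr1 and Egr3 were not examined. At least 4 matches were found in 0.137% of the stretches. A match describes the letters only, and binding was not measured.

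The spread over the 3 mice was moderate for most genes. The median CV was 22.5% over identifiers with a mean of at least 1 RPKM. It was 28.4% between 1 and 5 RPKM, 21.3% from 5 to 20 RPKM, 19.1% from 20 to 100 RPKM and 20.5% above. At 1 RPKM for a transcript of 1 kb, counting error alone gives a CV of 30.9% in mouse 1 and 18.3% in mouse 3. Of 8729 identifiers with a mean of at least 5 RPKM, 333 (3.81%) had a CV of at least 50%. These 333 were highest in mouse 1 for 118, in mouse 2 for 112 and in mouse 3 for 103. Of all 8729, mouse 1 was the highest for 3267, mouse 2 for 2737 and mouse 3 for 2725.

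The most variable protein-coding genes of the nucleus, named here, each stood out in 1 mouse. A CV as high as theirs over 3 libraries needs 1 value well above the others, so that pattern follows from the ranking. Sds, the serine dehydratase gene, had 15.9 RPKM in mouse 1 and was listed at 0 in mice 2 and 3. Asb1 had 8.82, 7.09 and 54.8 RPKM, and Mafk, a small bZIP factor gene, 16.6, 0.980 and 5.09 RPKM. Cxcl12, a chemokine of meninges and vessels, had 47.6, 10.7 and 5.97 RPKM. Mouse 1 was the high one for Sds, Mafk and Cxcl12, and mouse 3 for Asb1. Among the 15 most variable of all identifiers, 5 were mitochondrial tRNA genes, each highest in mouse 2, such as mt-Tm with 5.44, 86.2 and 10.51 RPKM.

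The steadiest gene was Klhl2, an adaptor of a ubiquitin ligase, with 23.1, 23.2 and 23.2 RPKM and a CV of 0.164%. Kat14 had 13.6, 13.6 and 13.5 RPKM and the sorting nexin gene Snx32 54.9, 55.4 and 54.5 RPKM. With 3 libraries some genes come close together by their number alone, so these values describe the libraries only.

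**Figure D5:**
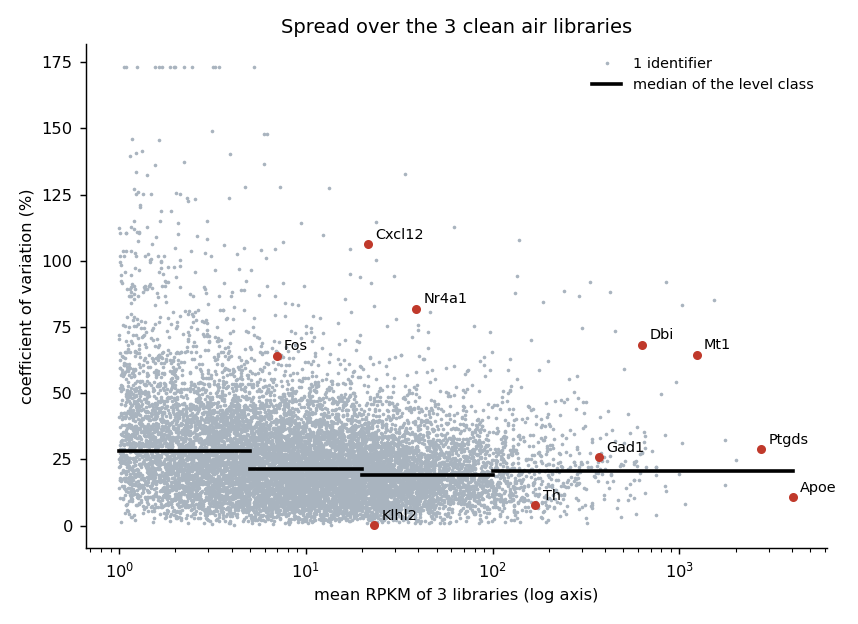
Coefficient of variation (%) against mean RPKM (log axis) for identifiers with a mean of at least 1 RPKM, with black lines for the median in 4 classes of level. Th, Apoe and Klhl2 lie below the class median, and Mt1, Dbi, Nr4a1, Fos and Cxcl12 above 60%.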

How the data were processed

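RNA from 3 clean air mice was poly(A)-selected and sequenced from paired ends, per the labels' protocols. Reads were aligned with Bowtie to mm9, per the submitters' processing notes. The sources used here do not name the annotation, the counting rule, the use of strand or the fate of reads with several matches. Deposited by the authors were RPKM values for 27497 identifiers, used as scaled there.

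Names came from GENCODE M21 by identifier (22500) or from the table (1310), and 3687 identifiers were unnamed. Depth came from the steps between low RPKM values of RNAs under 200 nt, with a length 34 nt shorter than annotated: 86.3% to 92.1% of values came out whole within 0.05, against 29.7% to 31.6% with the full length. Floors are 3 counts and cover counting error only. GC content, length and shared 35-base windows were taken from GENCODE transcripts.

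Means, SD, CV and family shares were computed per gene and library with pandas 2.3.3. Scripts for depth and CV were tested on simulated data. No test was made. The vesicular GABA transporter ratio was replaced by the Gad1 plus Gad2 ratio, because the transporter gene was not analysed here. Named are the 25 most abundant genes, members of the lists, the 20 highest factors and the most and least variable genes above a mean of 5 RPKM. Mt2, mt-Nd6, Gapdh, Ubb and Fau were chosen after their values were seen. The members and lists were chosen with earlier results of these data known. Some members of these lists are not reported here.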

Additional observations from a re-analysis of the deposited data

How the results depend on the processing

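No paired analysis was possible because 1 group enters and no test is made. The count of detected identifiers, 11891, was 13013 at 0.5 RPKM, 10444 at 2 RPKM and 13511 when libraries were rescaled to TPM. The count of factors at 10 RPKM, 91, was 141 after that rescaling, which multiplies all values, and 60 at 20 RPKM. The Gad1 plus Gad2 ratio of 1.07 was 125 over Slc17a6 alone, an alternative chosen after seeing the data, since Slc17a6 is low. Settings with the vesicular GABA transporter were not run. Without 1 mouse at a time, the counts were 12100 to 12244 and 94 to 96, the share of the first 25 identifiers 8.84% to 9.39%, the ratio 0.939 to 1.31, the shares of Gria2 14.7% to 15.9% and Grin2b 4.84% to 8.24%, the median CV 16.9% to 21.1%, and the marker lists with a median of at least 1 RPKM, 13 of 17, were 13 to 14. The ratio was below 1 without mouse 1 or without mouse 2. Over the other results, 127 of 151 settings were counted as leaving the value the same, mostly by a limit of 1 SD. Many of these settings are family shares of the leading gene without 1 mouse at a time. A mean over so few libraries cannot move by 1 SD of the same values when 1 is left out. Those settings therefore could not fail, and the count of 127 is no measure of stability. The count of immediate early factors highest in mouse 3 has no SD and was not judged by that limit. Lowly expressed genes are limited by depth, since 1 RPKM for 1 kb is 10.5 reads in mouse 1.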

Other observations

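Genes that stood apart in a single library differed in length. Among 8246 nuclear protein-coding genes averaging 5 RPKM or more, 126 in mouse 2 were below 50% of the lower value of the other mice, and their median transcript length was 5172 nt, against 3399.5 nt over all. They included the transporter genes Slc1a2 and Slc12a5, the mitral cell gene Reln, the potassium channel gene Kcna2 and the kainate receptor gene Grik3. In mouse 3, 142 genes were below 50% of the others, with a median length of 2050.5 nt, among them Npy, Gng13, Apod and Hbb-bs. In mouse 1 there were 27 such genes, with a median length of 2906 nt. Transcript lengths are those of the longest GENCODE transcript, and the cause of these differences was not tested.

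In mouse 3, 45 of the 8246 genes were above the higher value of the other mice by more than 2-fold. In mice 1 and 2 there were 48 and 50 such genes, so mouse 3 did not have more of them. Besides Fos, Nr4a1, Egr1 and Fosl2, those of mouse 3 included the imprinted gene Peg3, with 24.1, 16.7 and 55.9 RPKM, and Vipr2.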
